A study of Mus musculus with 4 samples.

Results

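The Janus kinases (JAKs) and the signal transducers and activators of transcription (STATs) carry the signal of many cytokines to the nucleus. The genes described here are 3 kinases, Jak1, Jak2 and Tyk2, and 6 factors, Stat2, Stat3, Stat4, Stat5a, Stat5b and Stat6. They were taken by name from the probe sets annotated to exactly 1 gene symbol, and all 9 listed genes were found among 19938 genes. Each of the 9 was read by 1 probe set, and no filter on low values was applied. Other JAK and STAT genes were not analysed here.

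Marrow RNA of C57BL/6N mice was hybridised, with 1 GeneChip Mouse Gene 1.0 ST array per sample. The LPS group (replicates 1 and 2) had received 50 µg of lipopolysaccharide, a bacterial membrane glycolipid mixed in equal parts from E. coli K12 and S. minnesota. The PBS group (replicates 1 and 3) had received phosphate-buffered saline, and both were given as 1 intraperitoneal injection 8 h before marrow was analysed. The study asked which marrow genes change in this acute inflammation. The labels name no genotype other than the strain, give no age, and do not say whether a replicate was 1 mouse, so the p-values measure only the spread between these samples, which may be technical.

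As background, a cytokine draws its receptor chains together, and the JAKs bound to the chains phosphorylate each other, the receptor and then STAT proteins. Phosphorylated STATs pair, enter the nucleus and bind short palindromic sites. Which JAKs and STATs act depends on the receptor: interferon receptors use JAK1 with TYK2 or JAK2, receptors of erythropoietin, thrombopoietin and the myeloid growth factors use JAK2, and these last make the pathway central to blood formation. The proteins are switched on by phosphorylation, which an RNA array does not read.

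The values are log2 expression as deposited, and changes are LPS minus PBS. Median levels over genes were 8.01 to 8.03 on the 4 arrays. Marker genes of neutrophils and their precursors averaged 12.5 to 12.8 per array over 12 genes. The means of 7 B-lineage genes (10.61 to 11.02) and of 5 erythroid genes (11.3 to 11.6) also lay above the median. The mean of 3 hepatocyte genes, which marrow should lack, was 6.50 to 6.56, below the lower quartile of genes (6.66 to 6.72). Of these, Alb and Ttr lay below that quartile on every array, but Apoa2 lay above it, at 7.47 to 7.52. In whole marrow, fewer cells of a type and less RNA per cell cannot be told apart.

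Of the 9 genes, 1 changed: Stat2 rose 2.52-fold after LPS. The other 8 did not pass the threshold, a limma p under 0.05 after Benjamini-Hochberg adjustment across the whole gene table. Stat3 was 1.25-fold higher and Stat4 0.77-fold of PBS, both with groups that did not overlap, as was so for 44.9% of all genes. The 3 kinases had differences of -0.14 to 0.07 log2. Over all genes, 2.39% passed as higher, 1.27% as lower and 3.66% in either direction. The median change of the 9 genes was -0.06 log2, against -0.01 over all genes.

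**Figure D1:**
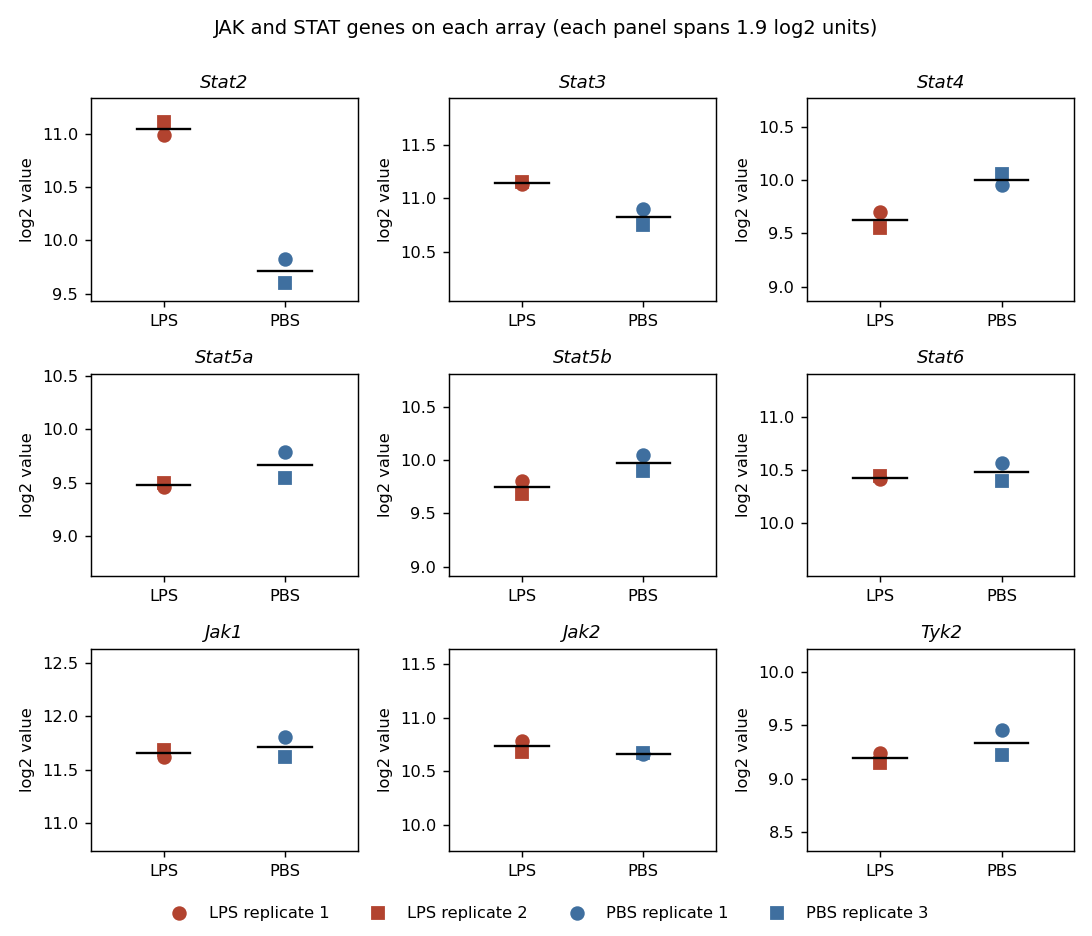
Log2 value of each JAK and STAT gene on each array, with LPS arrays on the left and PBS arrays on the right of each panel. Circles and squares are single arrays, black bars are group means, and every panel spans the same number of log2 units. Only for Stat2 are the groups more than 1 log2 unit apart.

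Stat2 encodes the factor that, with IRF9 and a partner STAT, forms the complex through which type I interferons switch on genes. Its log2 value was 10.99 and 11.11 in LPS replicates 1 and 2, against 9.82 and 9.60 in PBS replicates 1 and 3. Both LPS arrays were high, both PBS arrays were low, and the nearest arrays of the 2 groups stood 1.17 log2 apart. That gap exceeded the distance between replicates, which was 0.12 for LPS and 0.22 for PBS. The group means were 11.05 ± 0.0847 for LPS and 9.71 ± 0.155 for PBS (SD, n = 2 each). LPS exceeded PBS by 1.33 log2 (SE 0.107, 95% interval 1.09 to 1.58), with a limma adjusted p of 0.00043.

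Among the 476 genes that rose, Stat2 stood at rank 98 by size of change, above their median of 0.83 log2. With 1 array left out the change of Stat2 ran from 1.22 to 1.44. In those fits the lone array of a group was assumed to vary like the other group. An unmoderated linear model, which leaves each gene with 2 residual degrees of freedom of its own, gave an adjusted p of 0.335 and called no gene, with 2185 genes at an unadjusted p under 0.05. With 2 arrays a group, at least 2 of the 6 arrangements of the arrays are as extreme as any observed one, so an exact permutation test cannot pass.

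The promoter of Stat2 is shown because it is the only one of the 12 promoter windows of the 9 genes that holds 2 kinds of the motifs searched. Sequences are from RefSeq, build GRCm38.p6, read 5′ to 3′ on the strand of the gene, and position 0 is the annotated start site. Stat2, chr10:128270248-128270497, plus strand, positions -250 to -1, with the motif matches in capitals:
Stat2: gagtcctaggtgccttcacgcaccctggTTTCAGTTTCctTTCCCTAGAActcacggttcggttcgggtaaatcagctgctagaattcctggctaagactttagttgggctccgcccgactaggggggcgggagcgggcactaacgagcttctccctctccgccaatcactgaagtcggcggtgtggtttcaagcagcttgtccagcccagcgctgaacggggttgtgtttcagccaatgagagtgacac

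The capitals at -222 to -213 are 2 runs of GAAA set 2 bases apart, NN, and read on the opposite strand. This is the core of the interferon-stimulated response element, the site that the STAT2 and IRF9 complex binds. The capitals at -210 to -201 are TTC and GAA set 4 bases apart, NNNN, with the spacing that STAT6 prefers, and the 2 matches do not overlap. The third motif, TTCNNNGAA, is the gamma-activated site bound by most STAT pairs. Both strands of each window, from 250 bases before to 50 after the start, were searched. Of 32851 windows of that length, 3.44% held the first motif, 6.95% the second and 8.30% the third. A match describes letters and does not show a bound site.

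Stat4, in the second of its 2 windows, was the other gene of the 9 with a match to the first motif. Its surroundings are chr1:52008123-52008172, plus strand, positions -117 to -68, with the match in capitals:
Stat4: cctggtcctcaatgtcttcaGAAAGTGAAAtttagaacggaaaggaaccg
The first motif thus matched near a start site of Stat2, which was higher, and of Stat4, whose value was lower, with different bases at the free positions. The windows of Stat3, Stat5a, Stat5b, Stat6, Jak1, Jak2 and Tyk2 held none of the 3 motifs.

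**Figure D2:**
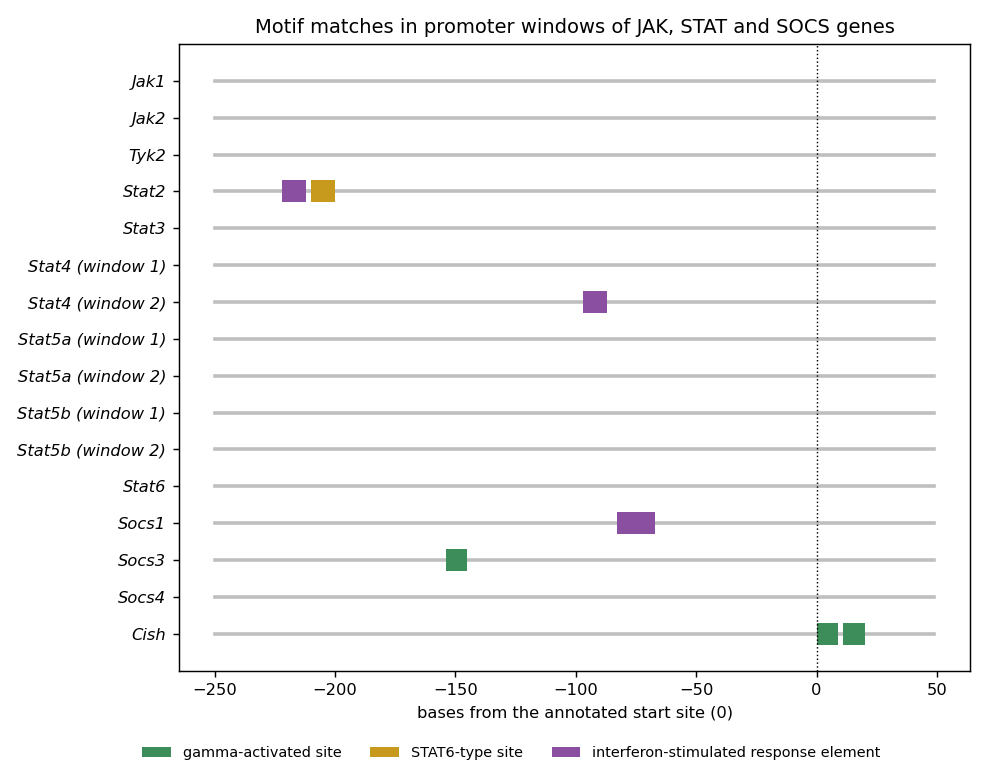
Matches to the 3 motifs in promoter windows of the JAK, STAT and SOCS genes that have one, drawn by distance in bases from the annotated start site. Grey lines are the windows searched and coloured blocks the matches. Blocks stand in 2 of the 12 JAK and STAT windows, those of Stat2 and the second of Stat4.

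By the distance between mean-centred log2 values over the 4 arrays, the 5 genes most like Stat2 were Slfn5, Cmpk2, Htra1, Rnf213 and Dhx58, at 0.105 to 0.134. Slfn5 encodes a Schlafen family protein, Cmpk2 a mitochondrial nucleotide kinase, Htra1 a secreted serine protease, Rnf213 a large ubiquitin ligase and Dhx58 the RNA sensor LGP2. Slfn5, the nearest, had 11.20 and 11.33 in LPS replicates 1 and 2, against 9.91 and 9.78 in PBS replicates 1 and 3. With 4 arrays, likeness to Stat2 says little more than a change of similar size with small replicate gaps. Of the 4 genes with a window, Slfn5 held the first motif, at chr11:82951927-82951976, plus strand, positions -175 to -126, again with the match in capitals:
Slfn5: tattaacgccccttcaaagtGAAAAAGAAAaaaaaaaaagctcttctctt

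Genes listed as partners or targets of STAT2 were higher as well. Of 13 measured partners and interferon-stimulated targets, 13 rose and 0 fell, with a median of 1.72 log2. Over all genes 2.39% rose. This list, like the other lists, was written with earlier results of these data known, so its count is no independent evidence. The largest rises were those of Ifit3 (2.26), Ifit1 (2.22) and Ifit2 (2.20), which encode proteins that bind foreign RNA or restrain translation. Irf9, named after its value was seen because its protein is the DNA-binding partner of STAT2, rose by 0.56 log2 (limma adjusted p = 0.0167). Leaving out LPS replicate 2 raised this to 0.0807, so that Irf9 missed the threshold. The 4 interferon receptor genes did not pass, and the highest in level, Ifngr2 and Ifngr1, had differences of 0.20 and -0.18. Il23a, the next protein-coding gene beside Stat2 on chromosome 10, had a difference of -0.19 and did not pass.

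Stat3 encodes the factor that responds to interleukin-6, interleukin-10 and granulocyte colony-stimulating factor. Its log2 value was 11.14 and 11.16 in LPS replicates 1 and 2, against 10.90 and 10.75 in PBS replicates 1 and 3. The LPS arrays were nearly equal and both lay above the PBS arrays, with 0.24 log2 between the groups. The change was 0.32 log2 (SE 0.0932, 95% interval 0.10 to 0.54), and the limma adjusted p of 0.135 did not pass. The interval alone takes no account of the number of genes tested. With 1 array left out the change ran from 0.25 to 0.39.

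Of 17 measured genes listed as STAT3 targets, 9 rose and 0 fell (over all genes, 2.39% and 1.27%), with a median of 0.45 log2. The 8 that did not pass ranged from -0.04 to 0.45 log2. This list too was written with earlier results of these data known. Saa3, an acute phase apolipoprotein gene, rose by 6.62, Timp1, a metalloproteinase inhibitor gene, by 2.57 and Steap4, a metalloreductase gene, by 1.14. The PBS arrays of Timp1 were far apart, at 7.10 and 8.48, and its rise was 1.88 without PBS replicate 1 and 3.26 without PBS replicate 3. Among the ligands, Il6 rose by 1.46, although its log2 level was low, with means of 6.48 in LPS and 5.02 in PBS. Osmr, the receptor of oncostatin M, another STAT3 activator, rose by 1.21. Genes upstream of STAT3 that did not pass included the ligand genes Il10 (0.28) and Csf3 (0.22). The receptor genes Il6ra (-0.38) and Csf3r (-0.63) did not pass either.

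Stat4 encodes the factor that interleukin-12 activates in T cells and natural killer cells. Its log2 value was 9.70 and 9.55 in LPS replicates 1 and 2, against 9.95 and 10.05 in PBS replicates 1 and 3. Both LPS arrays lay below both PBS arrays, by 0.25 log2 at the nearest. The change was -0.38 log2 (SE 0.0975, 95% interval -0.60 to -0.15), and the limma adjusted p of 0.095 did not pass. Without 1 array the change ran from -0.45 to -0.30.

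Marker lists of the cells that use Stat4 had lower means in LPS, and so did the lists of most other cell types. Of 10 lists, 7 had lower means on both LPS arrays than on both PBS arrays. A list mean can rest on few genes. The endothelial mean was lower, with falls of Stab2 (-1.26) and Tek (-0.89), although the list's median difference was 0.07 log2. Its other genes, Emcn (0.52), Cdh5 (0.36), Pecam1 (0.11) and Kdr (0.04), were higher and did not pass. The median difference was -0.15 log2 for T-cell and -0.15 for natural killer genes, against -0.17 for neutrophil and -0.20 for erythroid genes. The mean of 7 T-cell genes was 8.15 and 8.00 in LPS replicates 1 and 2 and 8.27 and 8.22 in PBS replicates 1 and 3, and 0 of the 7 passed. That of 7 natural killer genes was 7.26 and 7.10 in LPS and 7.32 and 7.44 in PBS. Of these, Klrd1 (-0.89) and Klra8 (-0.83), which encode receptors, fell, and Prf1 (0.50), which encodes perforin, rose. The part of these cells in the value of Stat4 was not tested. Of 8 genes listed as STAT4 targets, Gzmb, a cytotoxic protease gene (3.84), and Map3k8, a kinase gene (0.49), rose, and Il18r1, an interleukin-18 receptor gene (-0.63), fell. Il12rb1, a chain of the receptor upstream of STAT4, rose by 0.86.

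Stat5a and Stat5b encode closely related factors that act downstream of erythropoietin, thrombopoietin, interleukin-3 and granulocyte-macrophage colony-stimulating factor. Both stand on chromosome 11, with Stat3 next to Stat5a. Stat5a had 9.47 and 9.50 in LPS replicates 1 and 2, against 9.79 and 9.54 in PBS replicates 1 and 3. Stat5b had 9.81 and 9.68 in LPS replicates 1 and 2, against 10.05 and 9.90 in PBS replicates 1 and 3. For each gene both LPS arrays were below both PBS arrays, but the nearest arrays were only 0.04 apart for Stat5a and 0.09 for Stat5b. The 2 genes are so alike in sequence that RNA of one may bind probes of the other, and the probe sequences were not used here.

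The log2 fold change of Stat5a was -0.18 (SE 0.107, 95% interval -0.43 to 0.07, limma adjusted p = 0.478). That of Stat5b was -0.23 (SE 0.099, 95% interval -0.46 to 0.00, limma adjusted p = 0.318). Neither passed. PBS replicate 1 decided the size for Stat5a, whose difference was -0.06 without it and -0.31 without PBS replicate 3. Stat5b ran from -0.30 to -0.16 with 1 array left out. Of 12 STAT5 targets, 4 rose and 1 fell (over all genes, 2.39% and 1.27%), with a median of 0.20 log2. The rises were led by Socs3 (0.92), Pim1 (0.73) and Id1 (0.44), and the fall was that of Igf1 (-0.82), a growth factor gene. Socs3 and Pim1, a survival kinase gene, stand in the STAT3 list too. Of 7 receptor genes of the beta common and homodimeric kind, Csf2rb2 (0.69) and Csf2rb (0.52) rose and 0 fell.

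Stat6 encodes the factor of interleukin-4 and interleukin-13. Its log2 value was 10.41 and 10.44 in LPS replicates 1 and 2, against 10.57 and 10.40 in PBS replicates 1 and 3, so the groups overlapped. The change was -0.06 log2 (SE 0.0962, 95% interval -0.28 to 0.17, limma adjusted p = 0.868), and its sign turned without PBS replicate 1 (0.03). Genes listed as STAT6 targets moved both ways, with 2 rises and 3 falls among 14 (over all genes, 2.39% and 1.27%). Cd209a (-2.02), Mrc1 (-1.72) and Fcer2a (-1.61), which encode lectin receptors, fell, and Il4ra (0.62), the receptor chain upstream of STAT6, and Ccl22 (0.53), a chemokine gene, rose. Mrc1 is also a macrophage marker. Of 6 monocyte and macrophage marker genes, Mrc1 and Vcam1, an adhesion molecule gene (-0.79), fell and Adgre1, a macrophage surface receptor gene, rose (0.56). The other markers, Csf1r (0.11), Ccr2 (-0.09) and Cd68 (-0.03), did not pass, and the median difference of the 6 was -0.06 log2. Their mean, which includes Mrc1 and Vcam1, was 10.37 and 10.31 in LPS replicates 1 and 2. In PBS replicates 1 and 3 it was 10.60 and 10.73. The part of these cells in the STAT6 targets was not tested.

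**Figure D3:**
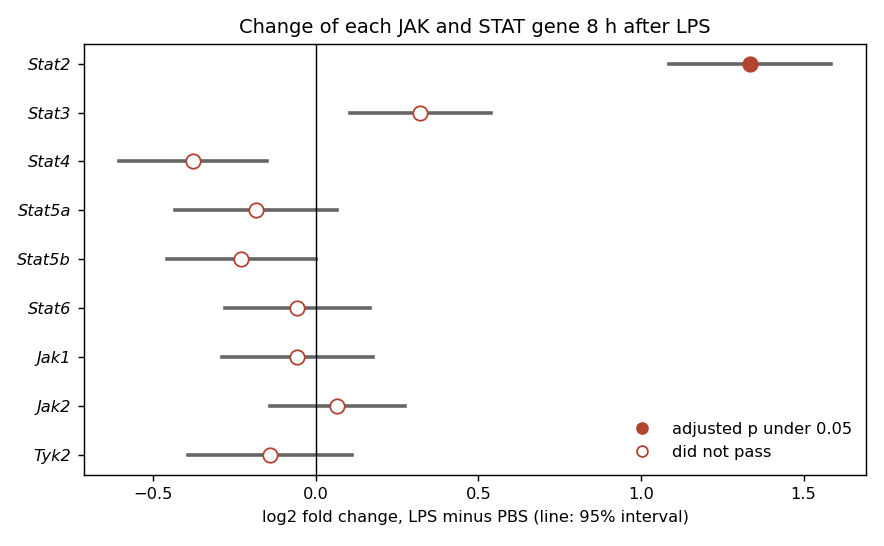
Log2 fold change, LPS minus PBS, of each JAK and STAT gene, with its 95% interval from limma as a line. The filled point passed an adjusted p under 0.05 over all genes and the open points did not. Stat2 stands at 1.33, the other 8 lie between -0.38 and 0.32, and of these the intervals of Stat3 and Stat4 do not reach 0.

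None of the kinase genes passed. Jak1 encodes the kinase shared by interferon, gp130 and common gamma chain receptors. Its log2 value was 11.62 and 11.69 in LPS replicates 1 and 2, against 11.81 and 11.62 in PBS replicates 1 and 3. The groups overlapped, and the change was -0.06 (SE 0.0998, 95% interval -0.29 to 0.17, limma adjusted p = 0.873). Its sign turned without PBS replicate 1 (0.04).

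Jak2 encodes the kinase of the erythropoietin, thrombopoietin and beta common receptors. It had 10.78 and 10.68 in LPS replicates 1 and 2, against 10.66 and 10.67 in PBS replicates 1 and 3. Both LPS arrays were higher, the second by only 0.01 log2, and the change of 0.07 (SE 0.0892, 95% interval -0.14 to 0.27) had a limma adjusted p of 0.821. The PBS arrays were closer to each other for Jak2 than for any other of the 9 genes, with a gap of 0.01.

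Tyk2 encodes the kinase held by the type I interferon and interleukin-12 receptors. It had 9.25 and 9.15 in LPS replicates 1 and 2, against 9.46 and 9.22 in PBS replicates 1 and 3. One PBS array lay between the LPS arrays, so the groups overlapped. The change was -0.14 (SE 0.108, 95% interval -0.39 to 0.11, limma adjusted p = 0.619), and it was -0.02 without PBS replicate 1 and -0.26 without PBS replicate 3. As folds, the 95% intervals ran from 0.82 to 1.13 for Jak1, from 0.91 to 1.21 for Jak2 and from 0.76 to 1.08 for Tyk2. The smallest change that passed among all genes was 0.41 log2.

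Counting arrays rather than tests, the groups did not overlap for 6 of the 9 genes. Stat2, Stat3 and Jak2 were higher, and Stat4, Stat5a and Stat5b lower. Over all genes the share with groups apart was 44.9%, with 20.4% higher and 24.5% lower.

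**Figure D4:**
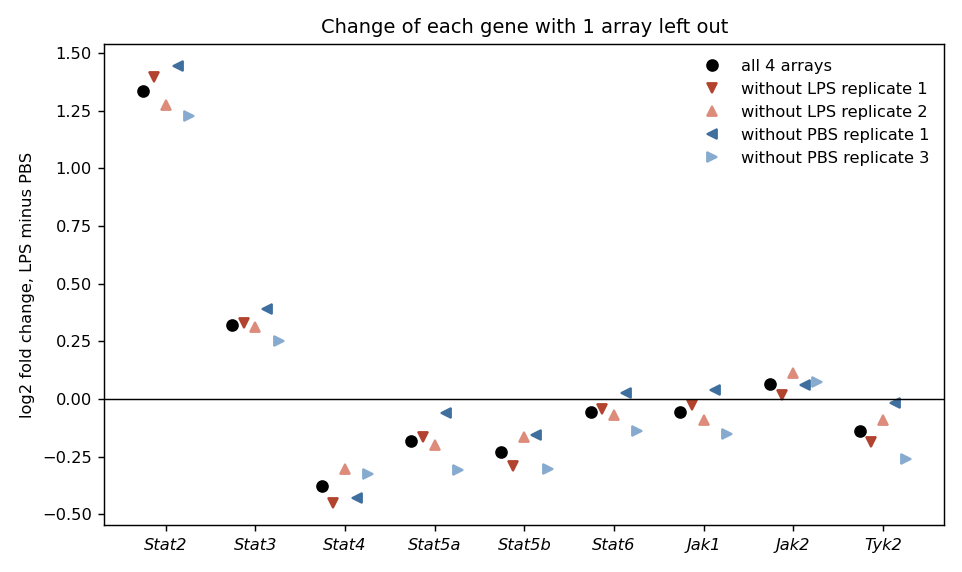
Log2 fold change, LPS minus PBS, of each JAK and STAT gene with all 4 arrays (black) and with each array left out in turn. Stat2 stays between 1.22 and 1.44, and Stat6 and Jak1 cross 0 without PBS replicate 1.

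Inhibitors of the pathway were measured as well. Of the 8 SOCS and CISH genes, 2 rose and 0 fell (over all genes, 2.39% and 1.27%). Their products bind JAKs or receptors, and some of the genes are induced by STATs. Socs3 had 9.32 and 9.28 in LPS replicates 1 and 2, against 8.39 and 8.37 in PBS replicates 1 and 3, a change of 0.92 log2 (limma adjusted p = 0.00103). The size of the Socs3 change depends on the probe set: with the mean of its 2 probe sets in place of the brighter one it was 0.40 log2 and did not pass (adjusted p = 0.0521). Socs1 had 9.40 and 9.58 in LPS replicates 1 and 2, against 8.68 and 8.60 in PBS replicates 1 and 3, a change of 0.85 (limma adjusted p = 0.00318). Only 4 of the 8 genes had a promoter window to search. Cish, which did not pass (0.26 log2, limma adjusted p = 0.309), held TTCNNNGAA at positions 0 to 8 and 11 to 19. Socs4 held no match. Both Socs1 and Socs3 have motif matches, shown for comparison with Stat2. That of Socs1 is 2 overlapping copies of the first motif, at chr16:10785584-10785639, and that of Socs3 is TTCNNNGAA, at chr11:117969492-117969540, both on the minus strand:
Socs1: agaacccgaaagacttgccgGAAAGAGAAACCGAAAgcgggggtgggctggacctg
Socs3: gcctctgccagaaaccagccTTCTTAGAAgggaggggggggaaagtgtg

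Of 13 PIAS, phosphatase and other inhibitor genes, 1 rose and 0 fell. It was Usp18 (2.18 log2, limma adjusted p = 1.93e-05), whose protein blocks the interferon receptor at the chain that binds STAT2, and it also stands in the list of interferon targets.

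Across the 12 other lists, 127 distinct genes were measured, of which 35 rose and 7 fell, with a median of 0.12 log2. Among all genes 2.39% rose and 1.27% fell, with a median of -0.01. The lists were written with earlier results of these data known. Of 9 gp130-family and interleukin-10 receptor genes, 1 rose, Osmr, and 1 fell, Lepr, the leptin receptor (-0.59). Of 10 genes of the common gamma chain and related receptors, 3 rose and 0 fell: Il15ra (0.96), Il12rb1 and Il4ra. Of 25 cytokine ligand genes, 2 rose, Il6 and Ebi3, a subunit of interleukin-27 (0.59), and 1 fell, Il7 (-0.65). With 1 array left out, 11 of the 42 calls did not pass in at least 1 of the 4 fits. Among the genes named here, Lepr, Csf2rb, Ebi3, Id1 and Map3k8 missed the threshold without LPS replicate 1 (limma adjusted p 0.0616 to 0.152). Besides Irf9, the same was so for Il7, Ccl22, Il18r1, Id1 and Map3k8 without LPS replicate 2 (0.106 to 0.156). Id1, Il18r1 and Map3k8 did not pass without PBS replicate 1 (0.0509 to 0.108), nor Il7 without PBS replicate 3 (0.0627). With every probe set in the fit, Pim1, Steap4, Timp1 and Igf1 did not pass either (0.0598 to 0.128).

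**Figure D5:**
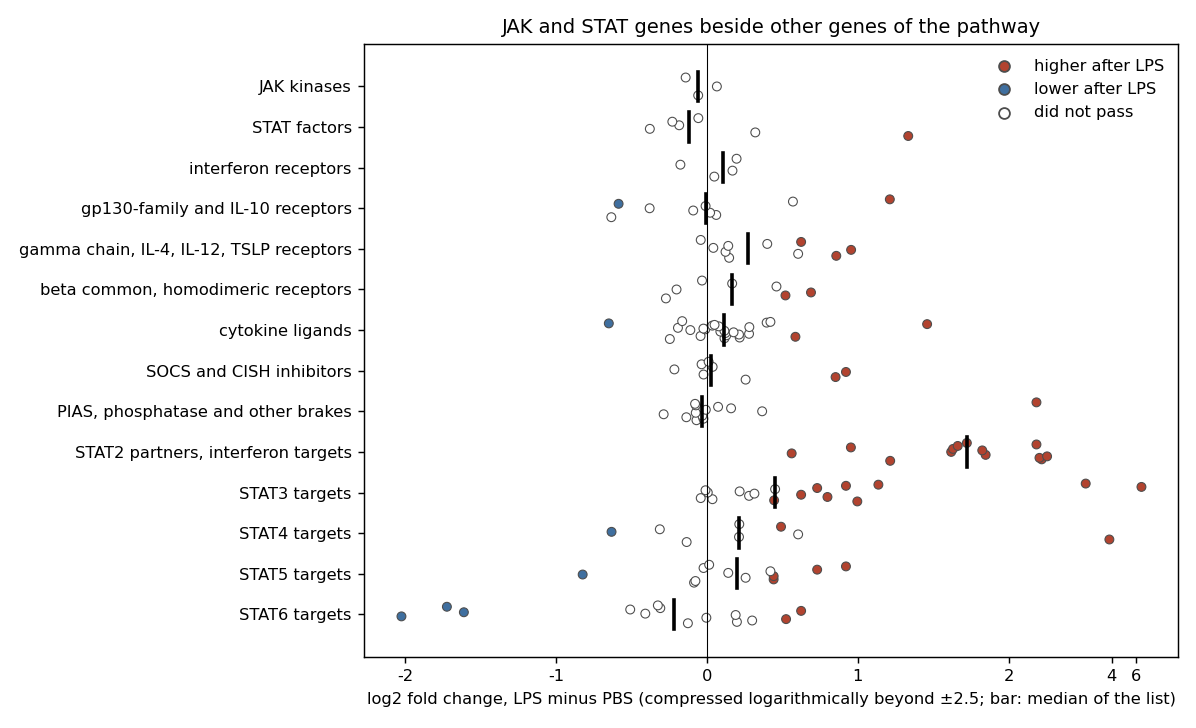
Log2 fold change, LPS minus PBS, of each measured gene in the JAK, STAT and other pathway lists, 1 row per list, with the axis compressed beyond 2.5. Red points passed as higher, blue as lower, open points did not pass, and black bars are list medians. The JAK and STAT rows lie near 0 apart from Stat2, and all 13 genes in the row of STAT2 partners and interferon targets are red.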

How the data were processed

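Bone marrow RNA of 4 samples (2 LPS, 2 PBS) was read on 1-colour arrays. The deposited log2 values were normalized by the authors with RMA, per the submitters' processing notes. The RMA version is not given in the sources used here. RMA equalizes the distribution of the arrays, so a change shared by most genes would not be seen. The log2 scale was read from the values, 2.76 to 14.52.

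Of 35556 probe sets, 21789 had 1 symbol in the platform annotation, 1621 had several and 12146 none. The brightest stood for each of 19938 genes (999 had several). LPS and PBS were compared by the two-sided moderated test of limma 3.58.1 under R 4.3.3 (no covariate, 2 residual and 5.59 prior degrees of freedom). The fit was tested on simulated data. Benjamini-Hochberg adjustment ran over all genes, and 95% intervals are limma's. The number of arrays limits the precision.

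The genes described and the lists were chosen with earlier results of these data known. Named are the 9 genes, up to 3 rises and 3 falls per list (with none, the 2 with the highest level), the 5 nearest to Stat2, markers and chromosomal neighbours. Irf9, Cish, Socs4, Il10, Csf3, Il6ra and Csf3r were named after their values were seen. Target lists follow general knowledge. Alternatives covered left-out arrays, probe set choice, filtering, moderation, centring and threshold. Figures used Python 3.11.15 and matplotlib 3.10.9.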

Additional observations from a re-analysis of the deposited data

How the results depend on the processing

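Stat2 had log2 changes of 1.22 to 1.44 under the 12 alternatives. Its groups did not overlap, so leaving out 1 array could not turn its direction. Stat2 has 1 probe set, and probe set choice, filtering, moderation and threshold left its change at 1.33 by design. With both arrays of each group kept, Stat2 missed the threshold only with the unmoderated linear model, at an adjusted p of 0.335. The other 8 genes did not pass under any of the 12. Without moderation 0 genes were higher and 0 lower (2185 at an unadjusted p under 0.05), so that 0 JAK or STAT genes and 0 genes of the other lists were called, since each gene then rests on 2 degrees of freedom. With every probe set in the fit, 355 were higher and 63 lower, Stat2 had an adjusted p of 0.0108, and 3 genes of the other lists were lower. At an adjusted p under 0.01, 286 genes were higher and 58 lower, with 4 lower in the other lists. Leaving out 1 array gave 385 to 696 higher and 127 to 423 lower genes, against 476 and 254 with all 4. In the other lists it gave 29 to 37 higher and 5 to 9 lower. The lone array of a group was there assumed to vary like the other group. Of the 42 calls in the other lists, 15 did not pass with every probe set in the fit, and Timp1 not with an intensity trend and robust eBayes (adjusted p = 0.245). No paired analysis was possible because the groups share only 1 replicate number. No background level per probe set was available, and the differences that could be detected are limited by the 4 arrays.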

Other observations

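PBS replicate 1 lay above PBS replicate 3 for 7 of the 9 JAK and STAT genes, all but Jak2 and Stat4, against 53.9% of all genes. The gap between the PBS arrays exceeded that between the LPS arrays for 7 of the 9 as well, again all but Jak2 and Stat4, against 54.6% of all genes. The median gap of the 9 was 0.09 log2 between LPS arrays and 0.17 between PBS arrays, and over all genes it was 0.10 and 0.11. What sets the PBS arrays apart was not tested, and the labels name no batch.

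The protein-coding neighbours of the Stat genes did not pass. Cavin1, beside Stat3, had a difference of 0.11 log2, Ghdc, beside Stat5b, of -0.14, and Nab2 and Lrp1, on either side of Stat6, of 0.14 and 0.04. Apof, on the other side of Stat2 from Il23a, had 0.14, against 1.33 for Stat2.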
